A study of Homo sapiens with 6 samples.

Results

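Semaphorins are guidance ligands that are secreted or held in the membrane, plexins are their signalling receptors, and neuropilins are co-receptors that bind ligand beside a plexin. Their RNA levels were compared in BE-(2)-C cells, a clonal subline of a human neuroblastoma line with an amplified MYCN gene, after ELF4 siRNA and after control siRNA. The genes were chosen by name, as every row of the deposited table named SEMA3 to SEMA7 with a letter A to G, every plexin A, B, C or D row, and NRP1, NRP2, PLXDC1 and PLXDC2. Rows that join several gene names or carry a hyphen were left out. This gave 33 genes of the 26906 rows in the table, 20 semaphorins, 9 plexins, 2 neuropilins and 2 plexin domain containing genes, and all 33 passed the filter on low values.

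Each group held 3 libraries of polyA-selected RNA, taken 48 hours after the siRNA. One group received siRNA against ELF4, an ETS family transcription factor, and the other a control siRNA. The sources used here do not give the siRNA sequences. Values are normalised read counts, that is, reads divided by 1 size factor per library, and n = 3 libraries per group throughout. Changes are log2 fold changes from limma, positive where ELF4 siRNA was higher, with the Benjamini-Hochberg adjusted p over all 20339 tested genes, and a gene is said to have risen or fallen where that p was below 0.05. The labels do not state whether the 3 libraries of a group are separate cultures, and the p-values therefore cover a spread that may be technical.

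Class 3 semaphorins are secreted and act through a neuropilin that holds the ligand and a plexin that signals, while SEMA3E can bind plexin D1 without a neuropilin. Classes 4 to 6 are membrane proteins that mostly bind plexins of the B and A classes, and SEMA7A is tethered to the membrane by a lipid anchor and binds plexin C1. Plexins signal through a GTPase-activating domain that acts on Ras family proteins such as Rap1, and so change the actin skeleton and adhesion. In mice, SEMA3A with NRP1 and SEMA3F with NRP2 guide neural crest cells and the sympathetic neurons that derive from them, the lineage in which neuroblastoma arises.

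The libraries held 23770924 to 25408746 reads in the ELF4 siRNA group and 23148635 to 38097986 in the control siRNA group. ELF4 had 5.51, 5.61 and 3.10 normalised reads after ELF4 siRNA, against 42.4, 38.8 and 46.8 after control siRNA (log2 fold change -2.96, limma adjusted p = 5.38e-07). The 8 markers of sympathetic neuroblasts were all present, and 2 rose, 2 fell and the others did not pass. They summed to 145491 to 159112 after ELF4 siRNA, against 113652 to 121098 after control siRNA, and 1 of them alone averaged 87765. Endothelial cells are known for plexin D1 and neuropilins, and the 3 endothelial markers of 5 with a row of their own had means of 3.11 to 9.55, while PECAM1 and TEK had none. The fibroblast markers summed to 2705 to 3012 after ELF4 siRNA and to 1782 to 1831 after control siRNA. Of the 4 tested, 3 rose and 0 fell, and the lowest of the 5 had a mean of 2.51. The Schwann markers summed to 185 to 202 after ELF4 siRNA and to 136 to 157 after control siRNA, where 1 of the 2 tested had risen. The blood markers summed to 31.9 to 48.3 and 46.8 to 53.7, and the epithelial markers to 13.5 to 18.6 and 17.0 to 22.8, after ELF4 siRNA and after control siRNA in that order. The part of these marker levels in the changes below was not tested. In RNA from whole cultures, fewer cells of a type and less RNA per cell cannot be told apart.

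After ELF4 siRNA, 10 of the 33 genes rose, 14 fell and 9 did not pass. NRP1, PLXNA1 and PLXNA3 rose, while NRP2, PLXND1 and PLXNA2 fell, so the receptors of class 3 semaphorins moved in both directions. Among the 20 ligands, 5 rose (SEMA3B, SEMA3C, SEMA5A, SEMA6A and SEMA6C) and 10 fell (SEMA3A, SEMA3D, SEMA3E, SEMA3F, 4 class 4 members, SEMA6D and SEMA7A). The 24 genes that changed are 72.7% of the 33. Of all tested genes 45.1% were called, 20.7% having risen and 24.4% having fallen. Upper quartile scaling turned that split round, with 5474 genes up and 3939 down against 4217 up and 4956 down, while 11 of the 33 genes then rose and 12 fell. Calls were more frequent among well measured genes, with 57.5% of those with a mean of at least 100, and 19 of the 23 semaphorin, plexin and neuropilin genes above that mean were called. The median absolute log2 fold change was 0.45 for the 33 genes and 0.22 for all tested genes. Because the genes were put together with earlier results of these data known, these shares are descriptions and carry no test. In 23 of the 33 genes no ELF4 siRNA value lay within the control range or the reverse, against 53.6% of all tested genes. Of the 24 changes, 11 were smaller than 0.5 on the log2 scale and 3 were at least 1. SEMA5A, among those 3, passed the filter on low values only through its ELF4 siRNA libraries.

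**Figure D1:**
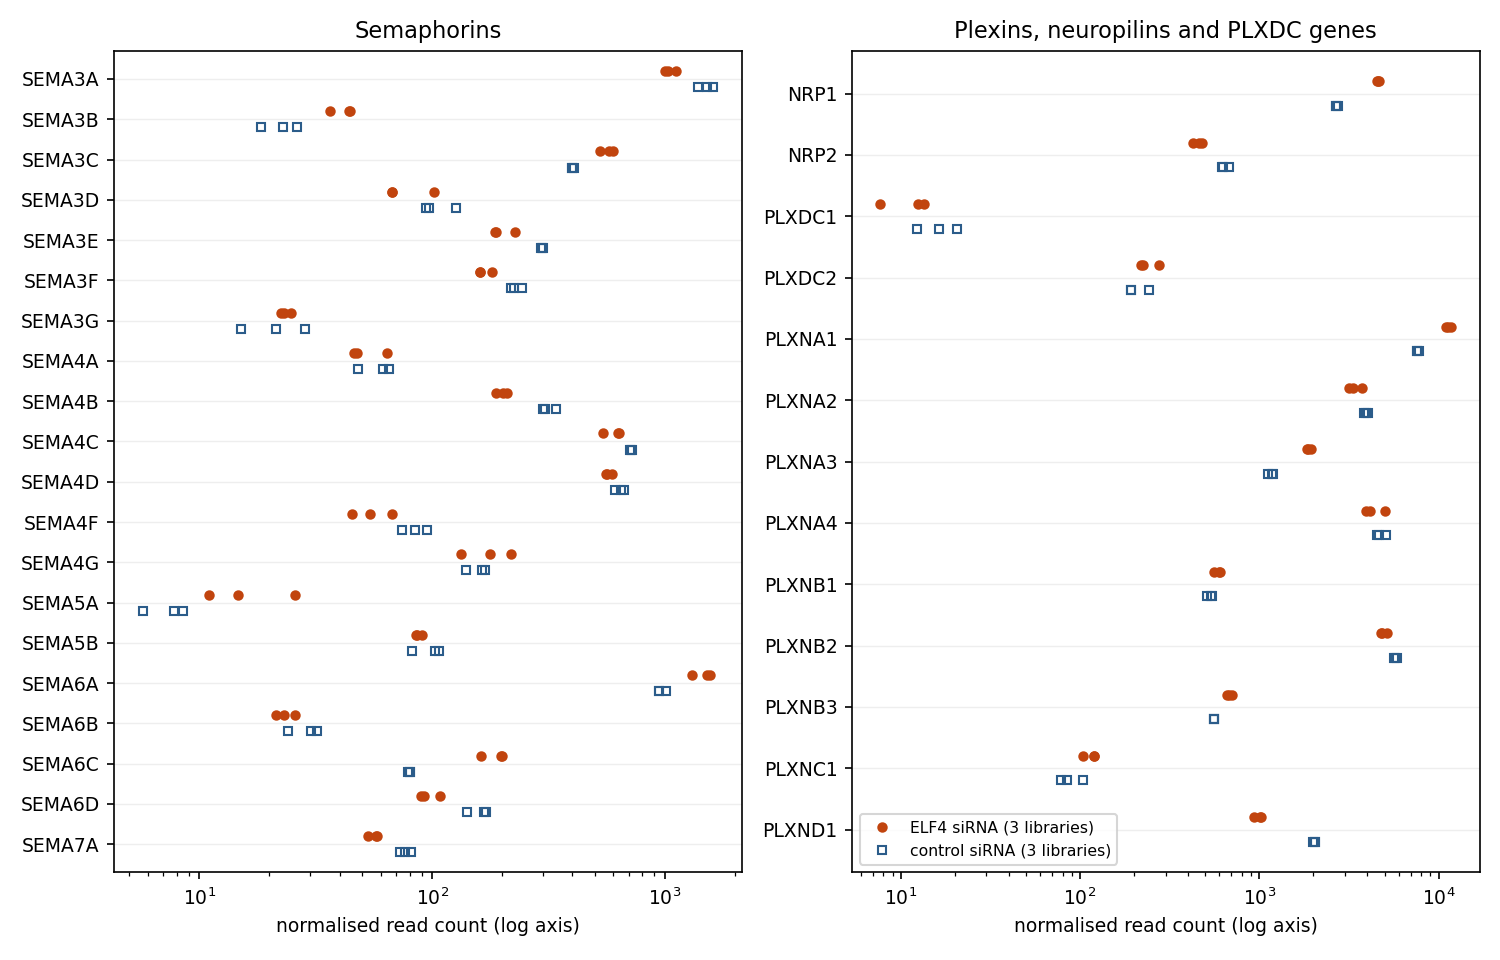
Normalised read count of each of the 33 genes on a log axis, with filled circles for the 3 ELF4 siRNA libraries above open squares for the 3 control siRNA libraries. PLXND1 lies between 938 and 1027 after ELF4 siRNA, clear of 1989 to 2056 after control siRNA, whereas the points of SEMA4G and PLXNA4 overlap.

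The neuropilins moved in opposite directions. NRP1, which binds class 3 semaphorins and also several forms of VEGF, had 4512, 4616 and 4666 normalised reads after ELF4 siRNA, against 2734, 2671 and 2683 after control siRNA. All 3 ELF4 siRNA libraries were above all 3 controls, and the log2 fold change was 0.77 (SE 0.04, limma adjusted p = 4.72e-09). NRP2, the preferred partner of SEMA3F, had 429.6, 482 and 463 normalised reads after ELF4 siRNA, against 676, 627 and 618 after control siRNA. Here all 3 ELF4 siRNA libraries were below all 3 controls, with a change of -0.48 on the log2 scale (SE 0.06, limma adjusted p = 3.04e-05).

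Expressed per kilobase of annotated exon, NRP1 was the more abundant neuropilin in all 6 libraries. Its level was 399 ± 6.80 normalised reads per kilobase after ELF4 siRNA and 234 ± 2.92 after control siRNA, where NRP2 had 33.0 ± 1.89 and 46.1 ± 2.23 in the same groups. The ratio of NRP1 to NRP2 per length was 12.7, 11.6 and 12.2 in the ELF4 siRNA libraries and 4.88, 5.14 and 5.24 in the control siRNA libraries. The ranges of that ratio did not meet, and the groups' means were 12.1 ± 0.55 and 5.09 ± 0.18 after ELF4 siRNA and control siRNA.

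Class A plexins signal for class 3 semaphorins beside neuropilins and for class 6 semaphorins directly. PLXNA1 and PLXNA3 rose, while PLXNA2 fell by less and PLXNA4 did not pass. PLXNA1, a partner of NRP1, had 11254, 11774 and 11051 normalised reads after ELF4 siRNA, against 7604, 7830 and 7603 after control siRNA. The groups lay apart, with a change of 0.56 on the log2 scale (SE 0.04, limma adjusted p = 6.14e-08). PLXNA3, the partner of NRP2 in SEMA3F signalling, had 1847, 1881 and 1935 after ELF4 siRNA, against 1114, 1199 and 1172 after control siRNA, and rose by 0.70 on the log2 scale (SE 0.05, limma adjusted p = 6.01e-08). PLXNA3 thus moved up where NRP2 moved down.

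PLXNA2, a receptor of SEMA6A, had 3177, 3334 and 3735 normalised reads after ELF4 siRNA, against 3955, 4032 and 3836 after control siRNA. The decrease was small, at -0.21 on the log2 scale (SE 0.05, limma adjusted p = 0.00572), and ELF4 siRNA replicate 3 lay nearest to the controls. Without the trend in the moderation its adjusted p was 0.0661. PLXNA4, the other class A receptor of SEMA6A, had 3949, 4134 and 5035 after ELF4 siRNA and 4517, 5069 and 4660.5 after control siRNA. Again ELF4 siRNA replicate 3 was the highest of its group, the groups overlapped, and the log2 fold change of -0.13 did not pass (95% interval -0.28 to 0.03, limma adjusted p = 0.186). The PLXNA4 value depended on single libraries, at -0.23 without ELF4 siRNA replicate 3 (adjusted p = 0.00426) and at -0.056 without replicate 1 (0.599). Upper quartile scaling gave -0.061 (0.532).

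PLXND1, the receptor of SEMA3E and known for its part in blood vessel patterning, had the largest decrease among the 33 genes. It had 1027, 1006 and 938 normalised reads after ELF4 siRNA, against 2042, 1989 and 2056 after control siRNA. Every ELF4 siRNA library held fewer than any control, at 48.8% of the control mean, with a change of -1.04 on the log2 scale (SE 0.05, limma adjusted p = 2.85e-09). Per length, PLXNA1 stood at 9.75, 10.4 and 10.5 times PLXND1 in the ELF4 siRNA libraries and at 3.31, 3.50 and 3.29 times in the control siRNA libraries.

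**Figure D2:**
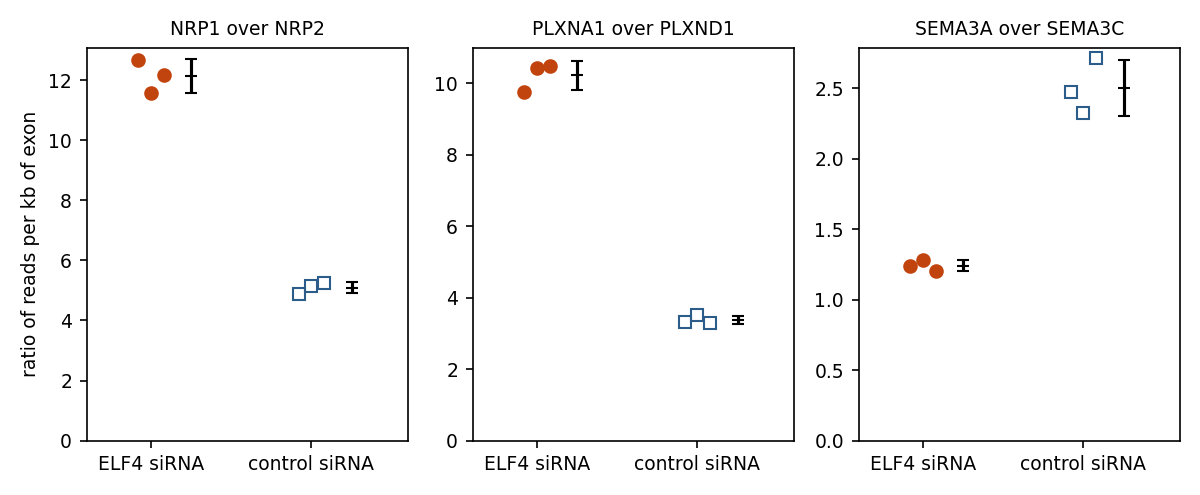
Ratios of normalised reads per kilobase of exon within each library for 3 pairs of genes, with ELF4 siRNA left of control siRNA and bars for the mean and SD of 3 libraries. The points of NRP1 over NRP2 lie between 11.6 and 12.7 after ELF4 siRNA and between 4.88 and 5.24 after control siRNA, and those of SEMA3A over SEMA3C are lower after ELF4 siRNA.

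Class B plexins are the main receptors of class 4 semaphorins. PLXNB2, the most abundant of them and a receptor of SEMA4C, averaged 4920 ± 182 normalised reads after ELF4 siRNA and 5738 ± 119 after control siRNA, and fell by 0.22 on the log2 scale (limma adjusted p = 0.000475). PLXNB3, a receptor of SEMA5A, averaged 680.5 ± 19.9 after ELF4 siRNA and 559.6 ± 2.49 after control siRNA, and rose by 0.28 (limma adjusted p = 0.000715). PLXNB1, the receptor of SEMA4D, averaged 586 ± 22.9 and 533 ± 17.8 after ELF4 siRNA and control siRNA, and its log2 fold change of 0.13 did not pass (95% interval 0.01 to 0.26, limma adjusted p = 0.0766), although the groups did not overlap. Upper quartile scaling, which shifts all genes by 0.06, gave PLXNB1 an adjusted p of 0.0134, and leaving out ELF4 siRNA replicate 3 gave 0.0449.

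PLXNB3 shares a joined row with SRPK3 that holds reads assigned to both names. That row had 315, 293 and 298 normalised reads after ELF4 siRNA, against 247, 272 and 229.5 after control siRNA, and moved in the same direction (log2 fold change 0.28, limma adjusted p = 0.0105). The level of PLXNB3 itself is uncertain by up to that amount.

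PLXNC1, the receptor of SEMA7A, was the lowest plexin, with 103.5, 120.1 and 119 normalised reads after ELF4 siRNA and 84.8, 78.8 and 104.1 after control siRNA. ELF4 siRNA replicate 1 lay just below control replicate 3, so the groups touched. The log2 fold change was 0.36 (95% interval 0.10 to 0.62, limma adjusted p = 0.0272), and the call was lost with DESeq2 (adjusted p = 0.113), without the trend (0.0613), and without ELF4 siRNA replicate 2 (0.0867) or 3 (0.0802) or control replicate 1 (0.0867) or 2 (0.0989). PLXDC1 and PLXDC2, which share a domain with plexins and are known from tumour endothelium, did not pass. PLXDC2 averaged 239.8 ± 30.1 after ELF4 siRNA and 209 ± 29.1 after control siRNA, with a 95% interval of -0.04 to 0.43 for the log2 fold change (limma adjusted p = 0.161). The log2 fold change of PLXDC2 was 0.31 without control replicate 3 (adjusted p = 0.0326) and 0.096 without ELF4 siRNA replicate 1 (0.531). PLXDC1 was close to the filter, at 11.2 ± 3.07 after ELF4 siRNA and 16.4 ± 4.16 after control siRNA, and its interval ran from -1.12 to 0.09 (limma adjusted p = 0.154).

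Class 3 ligands are the secreted semaphorins, and 4 of the 7 fell, 2 rose and 1 did not pass. The shares over all tested genes were 24.4% that fell and 20.7% that rose. SEMA3A, which repels axons through NRP1 and class A plexins, had 1109, 1003 and 1033 normalised reads after ELF4 siRNA, against 1508, 1379 and 1613 after control siRNA. It was the most abundant semaphorin of this class by length in both groups, at 112 ± 5.83 normalised reads per kilobase after ELF4 siRNA and 160.1 ± 12.5 after control siRNA. The groups lay apart, with a change of -0.51 on the log2 scale (SE 0.06, limma adjusted p = 1.15e-05). SEMA3A therefore fell where its co-receptor NRP1 and the class A plexin PLXNA1 rose. Of the other class A plexins, PLXNA3 also rose, PLXNA2 fell and PLXNA4 did not pass.

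SEMA3C, which uses either neuropilin with plexin A or D1 partners, rose. It had 600.4, 523 and 573 normalised reads after ELF4 siRNA, against 408, 398 and 398 after control siRNA, a rise of 0.49 on the log2 scale (SE 0.06, limma adjusted p = 2.92e-05). By length, SEMA3A stood at 1.24, 1.28 and 1.20 times SEMA3C in the ELF4 siRNA libraries and at 2.47, 2.32 and 2.71 times in the control siRNA libraries. The 3 ELF4 siRNA ratios were all below the 3 control ratios.

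SEMA3E, the ligand of plexin D1, had 226, 187 and 186 normalised reads after ELF4 siRNA, against 299.6, 294 and 297 after control siRNA. Both this ligand and its receptor PLXND1 were lower in every ELF4 siRNA library than in any control, and SEMA3E had a change of -0.57 on the log2 scale (SE 0.09, limma adjusted p = 8.70e-05). SEMA3F, the ligand of NRP2, had 161, 161 and 181 after ELF4 siRNA and 224, 243 and 218 after control siRNA, with a change of -0.45 on the log2 scale (SE 0.09, limma adjusted p = 0.000682). Thus SEMA3F and NRP2 fell and PLXNA3 rose.

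The other class 3 ligands rested on fewer reads. SEMA3D averaged 78.7 ± 19.7 normalised reads after ELF4 siRNA and 105.6 ± 17.8 after control siRNA, the groups overlapped, and the log2 fold change was -0.44 (95% interval -0.79 to -0.08, limma adjusted p = 0.0426). That call was lost with DESeq2 (adjusted p = 0.0926), without the trend (0.138), with upper quartile scaling (0.0703), and without ELF4 siRNA replicate 1 (0.158) or 2 (0.154) or control replicate 1 (0.0519) or 3 (0.182). SEMA3B is located near SEMA3F on chromosome 3 and is studied as a tumour suppressor. It had 36.4, 43.8 and 44.5 after ELF4 siRNA, against 26.4, 22.8 and 18.4 after control siRNA. SEMA3B rose by 0.86 on the log2 scale (SE 0.18, limma adjusted p = 0.00157). The antisense row SEMA3B-AS1 had 5, 3 and 6 reads in the ELF4 siRNA libraries and 1 read in each control library. No row joined SEMA3B-AS1 with SEMA3B. No strand setting is stated, so whether the rows of these genes share reads is not known. SEMA3G, known from blood vessels, averaged 23.5 ± 1.23 after ELF4 siRNA and 21.6 ± 6.75 after control siRNA, and did not pass (95% interval -0.34 to 0.65, limma adjusted p = 0.616). Its log2 fold change of 0.16 turned to -0.069 without control replicate 1 (adjusted p = 0.847).

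Class 4 ligands are membrane proteins best known for binding class B plexins, and 4 of the 6 fell while 0 rose. Among all tested genes 24.4% fell and 20.7% rose, and a count over 6 genes is a description only. SEMA4B had 202, 209 and 187 normalised reads after ELF4 siRNA, against 339, 298 and 305 after control siRNA, a change of -0.65 on the log2 scale (SE 0.08, limma adjusted p = 1.46e-05). SEMA4F averaged 55.4 ± 11.1 after ELF4 siRNA and 84.5 ± 10.2 after control siRNA, with a log2 fold change of -0.61 (limma adjusted p = 0.00485). In both genes all ELF4 siRNA libraries were below all controls.

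SEMA4C and SEMA4D fell by less. SEMA4C, the ligand of plexin B2, averaged 602.5 ± 51.4 after ELF4 siRNA and 714 ± 6.88 after control siRNA, a log2 fold change of -0.25 (limma adjusted p = 0.00652). SEMA4D, the ligand of plexin B1, averaged 571 ± 20.2 after ELF4 siRNA and 643 ± 29.8 after control siRNA, a log2 fold change of -0.17 (limma adjusted p = 0.0287). The SEMA4D call was lost with DESeq2 (adjusted p = 0.113), without the trend (0.0602), with upper quartile scaling (0.169, log2 fold change -0.11), and without ELF4 siRNA replicate 2 (0.0746) or 3 (0.0743) or control replicate 1 (0.0933) or 2 (0.0835). The call of SEMA4C stood in these alternatives, with its highest adjusted p at 0.0423. SEMA4A, which acts on immune and endothelial cells, averaged 52.5 ± 9.89 after ELF4 siRNA and 58.3 ± 8.92 after control siRNA, and did not pass (95% interval -0.50 to 0.20, limma adjusted p = 0.484). SEMA4G averaged 177 ± 42.7 and 157 ± 15.5 after ELF4 siRNA and control siRNA (95% interval -0.17 to 0.45, limma adjusted p = 0.448). The spread of SEMA4G came from its ELF4 siRNA libraries, which held 177, 219 and 134, and its direction turned with 1 library. Its log2 fold change was 0.33 without replicate 3 (adjusted p = 0.0418) and -0.024 without replicate 2 (0.905).

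Class 6 ligands bind class A plexins directly, and this class held the largest rise and the largest fall among the semaphorins. SEMA6C had 162, 198 and 199.7 normalised reads after ELF4 siRNA, against 80.1, 79.96 and 78.6 after control siRNA. All 3 ELF4 siRNA libraries held more than any control, with a change of 1.21 on the log2 scale (SE 0.10, limma adjusted p = 5.83e-07). SEMA6D, which binds plexin A1 and in chick embryos takes part in shaping the heart, had 89.2, 107.8 and 92.1 after ELF4 siRNA, against 169.6, 140.5 and 166 after control siRNA. Its log2 fold change was -0.72 (SE 0.11, limma adjusted p = 0.000118), so the ligand fell where its receptor PLXNA1 rose.

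SEMA6A, the ligand of plexins A2 and A4, was the most abundant class 6 member by length, at 133 ± 12.1 normalised reads per kilobase after ELF4 siRNA and 88.0 ± 3.26 after control siRNA. It had 1518, 1553 and 1308 normalised reads after ELF4 siRNA, against 942, 946 and 1006 after control siRNA, a rise of 0.59 on the log2 scale (SE 0.06, limma adjusted p = 4.26e-06). A joined row of AC010296.1 and SEMA6A held 2060, 1954 and 1728 after ELF4 siRNA and 1335, 1275 and 1349 after control siRNA, more than the row of SEMA6A alone. That row moved alike (log2 fold change 0.53, limma adjusted p = 7.04e-06), and adding it to SEMA6A gave 0.56. SEMA6B averaged 23.4 ± 2.29 after ELF4 siRNA and 28.7 ± 4.15 after control siRNA and did not pass (95% interval -0.68 to 0.13, limma adjusted p = 0.259).

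Classes 5 and 7 were expressed at low levels. SEMA5A, which carries thrombospondin repeats and binds plexin B3, was counted from few reads, 10, 13 and 25 after ELF4 siRNA and 9, 5 and 11 after control siRNA. Its normalised values were 11.0, 14.6 and 25.9 after ELF4 siRNA and 8.48, 5.71 and 7.79 after control siRNA, so the groups lay apart but ELF4 siRNA replicate 3 was far above the others. The log2 fold change was 1.06 (95% interval 0.37 to 1.74, limma adjusted p = 0.0149), and the call was lost without that library (0.094, log2 fold change 0.73) and with DESeq2 (0.051). SEMA5A passed the filter of 10 normalised reads only through its ELF4 siRNA libraries, as every control value was below it. Its p-value is therefore no independent evidence of a rise. SEMA5B averaged 87.1 ± 2.57 after ELF4 siRNA and 97.2 ± 13.4 after control siRNA and did not pass (95% interval -0.41 to 0.11, limma adjusted p = 0.342). SEMA7A had 57.3, 52.8 and 57.96 after ELF4 siRNA, against 72.5, 81.1 and 76.5 after control siRNA, with a change of -0.45 on the log2 scale (SE 0.12, limma adjusted p = 0.00739). The SEMA7A call was lost with DESeq2 (adjusted p = 0.0943).

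**Figure D3:**
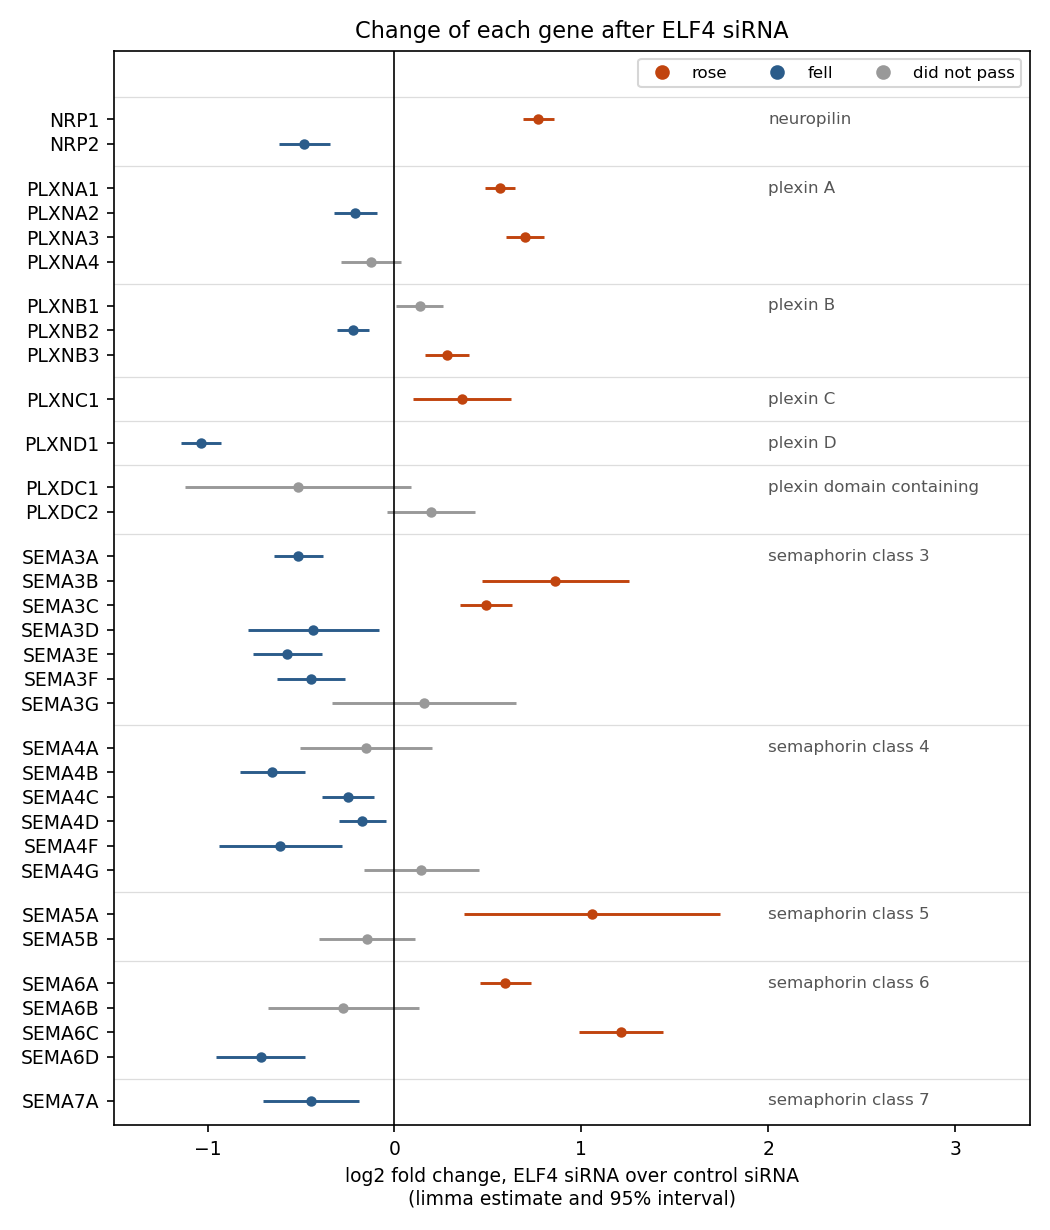
Change of each of the 33 genes on the log2 scale (limma), ELF4 siRNA over control siRNA, grouped by family, with its 95% interval over 3 libraries per group and the call in colour. Points right of 0 are higher after ELF4 siRNA, from 1.21 for SEMA6C to -1.04 for PLXND1, and the widest intervals belong to genes with few reads such as SEMA5A.

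Summed over each family per length, the receptors of class 3 and class 6 ligands were the most abundant. Class A plexins summed to 1658, 1731 and 1754 normalised reads per kilobase in the ELF4 siRNA libraries and to 1353, 1420.1 and 1358 in the control siRNA libraries. Class B plexins followed, with 818 to 862 after ELF4 siRNA and 914 to 945 after control siRNA. Most of the class A sum was PLXNA1, at 1038 ± 34.0 after ELF4 siRNA and 702 ± 11.9 after control siRNA. Of the ligands, class 3 summed to 266 to 294 after ELF4 siRNA and 317 to 339 after control siRNA, and class 4 to 198 to 228 and 255 to 264. Class 6 was the only one of the 5 semaphorin classes whose sum was higher in every ELF4 siRNA library, at 170.4 to 193 against 122 to 132 after control siRNA, while the class 5 sums overlapped, at 11.0 to 12.7 and 10.3 to 13.2. Over all 20 semaphorins the sums were 682 to 726 after ELF4 siRNA and 728 to 759.6 after control siRNA. Joined rows are left out of all these sums. The joined row of AC010296.1 and SEMA6A averaged 1914 normalised reads after ELF4 siRNA and 1320 after control siRNA. SEMA6A alone averaged 1460 and 965 in the same groups. The class 6 sums may therefore be too low, and the direction of the semaphorin total is not settled. Over the 9 plexins they were 2599 to 2709 after ELF4 siRNA and 2485 to 2578 after control siRNA. Sums of both kinds moved less than many of their members.

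**Figure D4:**
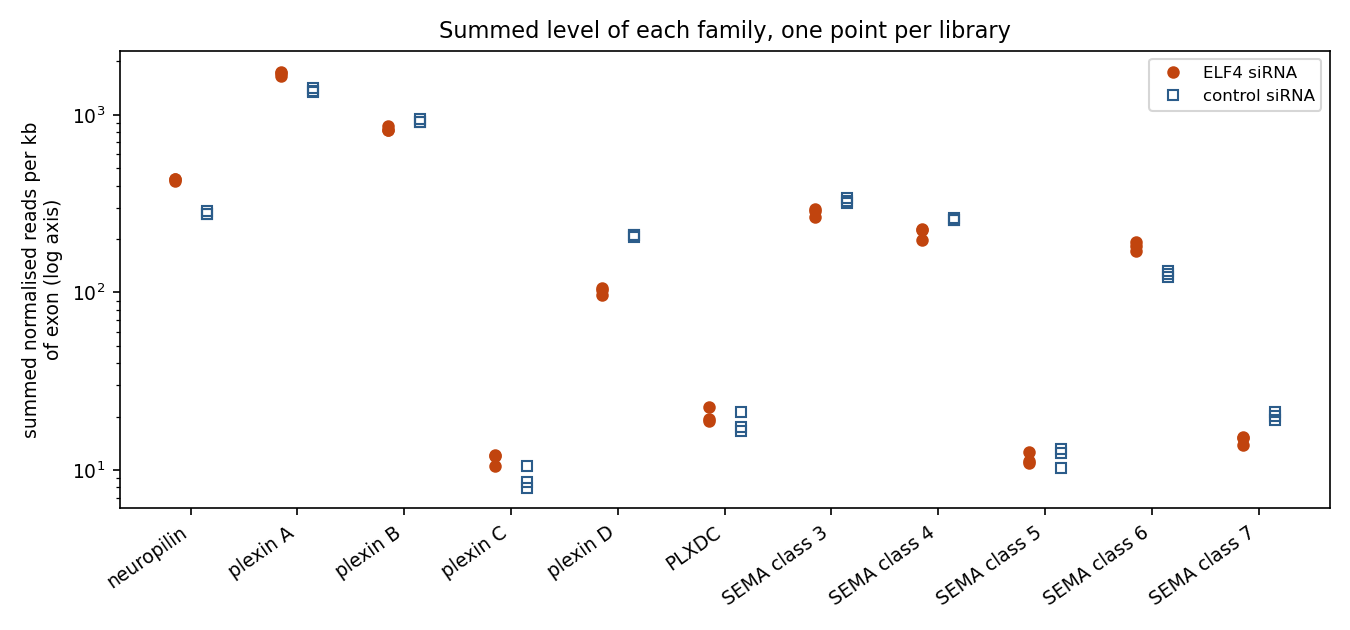
Normalised reads per kilobase of exon, summed over the members of each family, on a log axis with 1 point per library and ELF4 siRNA left of control siRNA. Neuropilins, class A plexins and class 6 semaphorins are higher in all 3 ELF4 siRNA libraries. Class B plexins, plexin D and semaphorin classes 3, 4 and 7 are lower in all 3. Joined rows are left out.

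Since ELF4 binds DNA through an ETS domain, which recognises a GGAA core, the promoters of the genes were searched for the 6-mer CCGGAA on both strands, in RefSeq windows on GRCh38.p14 from 250 bases before to 50 after each start. Promoters were in the table for 28 of the 33 genes, 49 windows in all. NRP1, PLXDC1, SEMA3A, SEMA6A and SEMA6B had no window and were not searched. The 6-mer was in 7 windows of 4 genes (14.3% of the 49 windows). It was in 17.2% of all 35116 promoters in the table. Among genes with a promoter in the table, 33.1% of all tested genes held it in at least 1 window, against 4 of the 28 members (14.3%), which were 1 of 8 that rose (PLXNA1), 1 of 13 that fell (SEMA4B) and 2 of 7 that did not pass (PLXNB1 and SEMA4A). Windows are shown for the 2 genes that changed and hold the 6-mer, printed in capitals as it reads on the gene's strand, and for SEMA6C and PLXND1, the largest rise and the largest fall among the 33 genes, which lack it. SEMA4B holds the 6-mer in 2 of its 3 windows, of which the first is shown. A match is a description of the letters and says nothing of binding.
PLXNA1, chr3:126982865-126983164, plus strand: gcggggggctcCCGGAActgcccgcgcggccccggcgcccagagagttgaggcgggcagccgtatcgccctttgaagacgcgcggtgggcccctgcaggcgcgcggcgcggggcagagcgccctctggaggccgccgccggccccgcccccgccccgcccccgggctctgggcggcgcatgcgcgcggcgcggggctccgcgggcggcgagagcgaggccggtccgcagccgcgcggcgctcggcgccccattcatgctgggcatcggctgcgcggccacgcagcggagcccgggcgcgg
SEMA4B, chr15:90184670-90184969, plus strand: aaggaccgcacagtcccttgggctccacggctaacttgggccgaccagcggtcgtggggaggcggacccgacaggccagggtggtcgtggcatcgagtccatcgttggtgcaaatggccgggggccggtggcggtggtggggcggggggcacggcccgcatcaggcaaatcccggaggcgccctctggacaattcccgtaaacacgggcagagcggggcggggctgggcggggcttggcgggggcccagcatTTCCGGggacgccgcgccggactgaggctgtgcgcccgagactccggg
SEMA6C, chr1:151146582-151146881, minus strand: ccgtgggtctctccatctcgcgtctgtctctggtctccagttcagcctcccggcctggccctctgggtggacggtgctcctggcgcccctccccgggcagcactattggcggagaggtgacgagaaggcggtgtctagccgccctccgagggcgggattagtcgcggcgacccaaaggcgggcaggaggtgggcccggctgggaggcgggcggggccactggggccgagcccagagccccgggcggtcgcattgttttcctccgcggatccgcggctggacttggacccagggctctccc
PLXND1, chr3:129606627-129606926, minus strand: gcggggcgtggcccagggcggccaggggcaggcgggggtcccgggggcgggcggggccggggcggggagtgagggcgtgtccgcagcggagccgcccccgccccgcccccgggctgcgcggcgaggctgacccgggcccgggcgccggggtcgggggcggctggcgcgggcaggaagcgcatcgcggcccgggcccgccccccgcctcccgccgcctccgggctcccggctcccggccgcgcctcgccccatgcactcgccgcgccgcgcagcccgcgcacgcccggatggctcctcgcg

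The 3′ UTRs were searched for the overlapping 7-mers ACCTGTC and CCTGTCA, which had been picked in earlier work on these same fold changes because genes with them tended to be lower, so their presence here is a description and no test. One 3′ UTR was taken per gene, from the principal GENCODE 29 transcript. At least 1 of the 7-mers was present in 7 of the 33 genes (21.2%) and in 18.1% of 12466 tested genes with a 3′ UTR. Those 7 are 4 of the 14 that fell (NRP2, PLXNA2, PLXND1 and SEMA4F), 1 of the 10 that rose (SEMA5A) and 2 of the 9 that did not pass (PLXDC2 and SEMA4G). The UTRs of the 33 genes were longer, with a median of 2356 bases against 1144 for all tested genes, and a longer UTR has more room for any 7-mer. The stretches of the 5 genes that changed are shown 5′ to 3′ on the transcript with the 7-mers in capitals, and GRCh38 coordinates.
NRP2, chr2:205797921-205797944, plus strand, both 7-mers in overlap: aagagttaACCTGTCAcatagcag
PLXND1, chr3:129556099-129556122, minus strand: cccctcccACCTGTCcccagatca
PLXNA2, chr1:208027196-208027219, minus strand: gaagagggACCTGTCcaagctgtc
PLXNA2, chr1:208026231-208026254, minus strand: tatcaatcCCTGTCAtaaaccagg
SEMA4F, chr2:74682035-74682058, plus strand: caataaagACCTGTCtgtaccaat
SEMA5A, chr5:9042082-9042105, minus strand: ggaagtccACCTGTCtggtccata
SEMA5A, chr5:9040354-9040377, minus strand: gatctctcACCTGTCttggaaact
The other 10 genes that fell, SEMA3A, SEMA3E and SEMA4B among them, held neither 7-mer in that UTR.

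The genes that work with semaphorin receptors were counted from a list of 88 co-receptors, cytoplasmic effectors and processing enzymes, of which 78 were tested. In all, 14 rose (17.9%, against 20.7% of all tested genes), 34 fell (43.6%, against 24.4%) and 30 were not called, and their median change on the log2 scale was -0.06. With upper quartile scaling 20 rose and 31 fell, and the median was 0.01. This list too was put together with earlier results known, so its counts carry no test. Among 18 tested co-receptors, other receptors and ligands, 5 rose and 5 fell, and 7 and 5 with upper quartile scaling. The called share was 55.6%, against 45.1% of all tested genes and 57.5% of those with a mean of at least 100. The partner genes were not matched to other genes by level. VEGFA, a ligand of NRP1, rose, averaging 4773 ± 66.1 normalised reads after ELF4 siRNA and 3646 ± 117 after control siRNA (log2 fold change 0.39, limma adjusted p = 2.98e-06). PGF, the placenta growth factor that binds FLT1 and NRP1, fell to 353 ± 10.1 after ELF4 siRNA, against 706 ± 30.2 after control siRNA (-0.998, limma adjusted p = 2.19e-08). FLT1, the receptor of both, averaged 157 ± 40.9 after ELF4 siRNA and 275 ± 3.47 after control siRNA (-0.84, limma adjusted p = 0.000166). ERBB2, which associates with class B plexins, rose (0.76, limma adjusted p = 0.000200), and the proteoglycan genes CSPG4 (-1.05) and SDC3 (-0.42) fell.

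Of the 50 tested cytoplasmic effectors, 8 rose (16.0%, against 20.7% of all tested genes), 26 fell (52.0%, against 24.4%) and 16 were not called, and their median change was -0.16 on the log2 scale. With upper quartile scaling 12 rose and 23 fell, with a median of -0.10. In either direction 68.0% of the effectors were called, against 57.5% of all tested genes with a mean of at least 100. FARP1, a guanine nucleotide exchange factor, averaged 3928 ± 92.4 after ELF4 siRNA and 5727 ± 40.4 after control siRNA (-0.54, limma adjusted p = 8.06e-08). RAP1A, one of the small GTPases on which plexins act, averaged 897 ± 38.5 after ELF4 siRNA and 1294 ± 67.6 after control siRNA (-0.53, limma adjusted p = 3.38e-06). CDK5R1, the activator of the kinase that phosphorylates collapsin response mediators, fell to 129 ± 14.3 after ELF4 siRNA, against 273 ± 7.37 after control siRNA (-1.07, limma adjusted p = 4.94e-07). DPYSL5, one of those mediators, had a log2 fold change of -0.49 and the actin regulator VASP one of -0.69, and both fell. The effectors named here were picked by smallest adjusted p, and the 8 that rose are not named.

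Of the 10 tested processing enzymes, which cut semaphorins or their receptors, 1 rose, 3 fell and 6 did not pass, a called share of 40.0% that is no higher than the 45.1% of all tested genes. FURIN, the proprotein convertase that cleaves class 3 semaphorins, averaged 813 ± 20.7 after ELF4 siRNA and 996 ± 35.9 after control siRNA (-0.29, limma adjusted p = 0.000357). ADAMTS1 (-0.55) and the membrane metalloproteinase MMP14 (-1.07) also fell, and PCSK7 rose (0.17, limma adjusted p = 0.0134). The PCSK7 call was lost without the trend (adjusted p = 0.0775) and without ELF4 siRNA replicate 2 (0.0620) or control replicate 1 (0.0638) or 3 (0.0616).

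**Figure D5:**
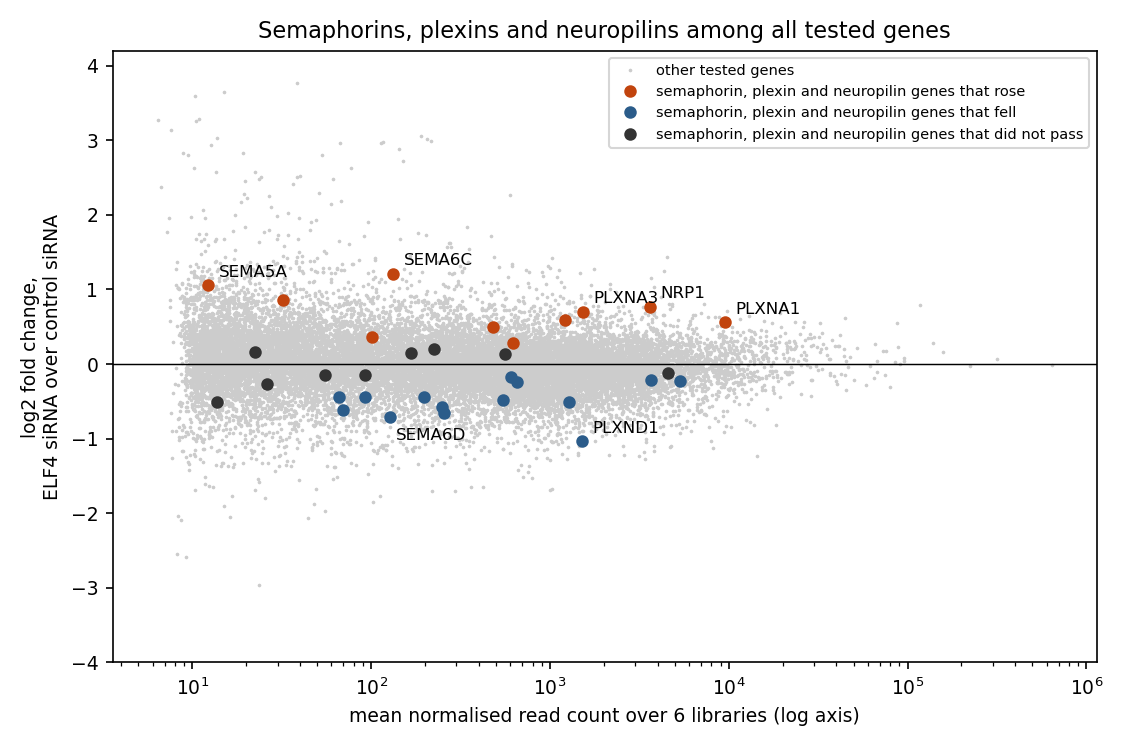
Change on the log2 scale, ELF4 siRNA over control siRNA, against the mean normalised read count over 6 libraries on a log axis, with the 33 genes as large points over the other tested genes in grey. The large points span from SEMA5A among the weakly expressed genes to PLXNA1, and at their read counts SEMA6C (1.21) and PLXND1 (-1.04) lie outside most of the grey points.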

How the data were processed

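PolyA-selected RNA of BE-(2)-C cells was sequenced by the authors in 6 libraries. The deposited signal is a normalised read count per gene, and TopHat, featureCounts, DESeq2 and hg19 are named in the submitters' processing notes, without roles or versions. No source used here gives the annotation, the strand setting or the filter. Each deposited value divided by the worth of 1 read was whole within 0.001 for 100% of values, so reads were recovered, and limma 3.58.1 (R 4.3.3) was run on log2(value + 1) with a trend and no covariate. On that scale changes of weakly expressed genes come out too small. A gene entered the test when 3 or more libraries had 10 or more normalised reads, and p-values were adjusted over all genes tested. Same-group libraries differed by more than sampling noise (chi-square per degree of freedom 2.05 to 5.78).

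Levels per kilobase used union exon lengths of GENCODE 29, which is on GRCh38 and not hg19. The members and lists were chosen with earlier results of these data known. Named were ELF4, all members, and up to 6 called partner genes per role with the smallest adjusted p. One named result is not reported here. Alternatives used edgeR 4.0.16, DESeq2 1.42.0 and further settings. Python 3.11.15, numpy 2.4.6, pandas 2.3.3 and matplotlib 3.10.9 were used.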

Additional observations from a re-analysis of the deposited data

How the results depend on the processing

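Under the 17 alternatives, the adding of joined rows having been chosen after seeing the data, 18 of the 24 changed genes (8 that rose, 10 that fell) kept their call wherever they could be tested, and 0 of their values reversed. Of the 9 uncalled genes, SEMA4G turned to -0.024 without ELF4 siRNA replicate 2 (adjusted p = 0.905), with values of -0.024 to 0.33 when 1 library was left out, and SEMA3G to -0.069 without control replicate 1 (0.847), with values of -0.069 to 0.37. The number that rose was 8 to 11 and the number that fell 11 to 14, with 9 to 11 and 12 to 14 when 1 library was left out. DESeq2 on the recovered reads gave 8 and 11, edgeR 10 and 14. Among all genes, 3353 to 5474 rose and 3939 to 5346 fell, against 4217 and 4956. ELF4 ranged from -3.17 to -2.30. The replicate numbers were not shown to pair libraries, as same-numbered deviations correlated at 0.029, 0.075 and 0.041, though each library correlated best with its own number. With the replicate block 10 members rose and 14 fell, and 4564 and 5346 genes in all. Depth limits SEMA5A, PLXDC1 and ELF4 most. Upper quartile scaling shifted all genes by 0.06.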
